A study of Homo sapiens with 24 samples.

Results

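The E2F transcription factors and the pocket proteins that bind them were followed through 10 genes, E2F1 to E2F8, RB1 and RBL1. They were taken by symbol from the deposited table of each cell line, where all 10 were found among 35587 symbols and all 10 passed the filter on low values in both lines. RNA was measured in 24 libraries of MOLM14 and OCI-AML2, both established human acute myeloid leukaemia lines, after 24 h with ARM165, AZ2 or DMSO, the solvent control. Each line thus had 4 ARM165, 4 AZ2 and 4 DMSO libraries, and the labels name no allele, transgene or second agent in any group. The series title concerns a heterobifunctional degrader molecule, but the labels do not tie it to either compound and state no dose. They do not say whether replicates were separate cultures either, so the p-values reflect the variation among these libraries and it may be technical. Each line stands for 1 leukaemia, and the tables of the lines were scaled separately, so levels are read within a line only.

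E2F factors bind the promoters of genes for DNA replication and for the cell cycle. E2F1, E2F2 and E2F3 are the activators, which the retinoblastoma protein (RB1) holds inactive until cyclin-dependent kinases phosphorylate it. E2F4 and E2F5 act mainly as repressors together with the pocket proteins RBL1 (p107) and RBL2 (p130), while E2F6 represses through a polycomb complex without a pocket protein. E2F7 and E2F8, the atypical members, repress E2F target genes without a DP partner.

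Several of these genes carry E2F binding words in their own promoters, and 4 of those sequences are shown because E2F1, E2F2 and RBL1 were among the members whose RNA fell most with ARM165, while E2F3, which holds such words too, was not. Promoter windows of 250 bases before to 50 bases after a start site were taken from RefSeq on GRCh38.p14 and were found for 8 of the 10 genes (9 windows, E2F3 having a second). E2F5 and E2F8 had no window, so E2F8, whose RNA also fell strongly with ARM165, could not be searched. Both strands were searched for 8 words, TTTCCCGC, TTTCCCGG, TTTCGCGC, TTTCGCGG, TTTGCCGC, TTTGCCGG, TTTGGCGC and TTTGGCGG. Of all 35116 windows of this length in the table, 6.19% held at least 1 word and 0.379% held at least 2. The windows of E2F1, E2F2, E2F6 and RBL1 and the first window of E2F3 each held 2 or more, and capitals below mark the words on the strand of the gene, 5′ to 3′. In E2F1 (chr20:33686336-33686635, minus strand) they began 37, 33 and 20 bases before the start site, the first being TTTCGCGG, overlapped by TTTGCCGC on the other strand. In E2F2 (chr1:23531184-23531483, minus strand) they began 57 and 42 bases before it. In RBL1 (chr20:37095948-37096247, minus strand) the distances were 26 and 16 bases, and in E2F3 (chr6:20401629-20401928, plus strand) they were 53 and 39 bases.
E2F1: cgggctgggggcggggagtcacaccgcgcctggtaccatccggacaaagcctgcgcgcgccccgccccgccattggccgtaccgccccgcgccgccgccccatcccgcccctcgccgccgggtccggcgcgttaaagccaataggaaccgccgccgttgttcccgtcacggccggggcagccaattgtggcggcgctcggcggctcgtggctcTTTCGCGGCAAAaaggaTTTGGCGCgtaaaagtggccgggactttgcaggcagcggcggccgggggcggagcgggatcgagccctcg
E2F2: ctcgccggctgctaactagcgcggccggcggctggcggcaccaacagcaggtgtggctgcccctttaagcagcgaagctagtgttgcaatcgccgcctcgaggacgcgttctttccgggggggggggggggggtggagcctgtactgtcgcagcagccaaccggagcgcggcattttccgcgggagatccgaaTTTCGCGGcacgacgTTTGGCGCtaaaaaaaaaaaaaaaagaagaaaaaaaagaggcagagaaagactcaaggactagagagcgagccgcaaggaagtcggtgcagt
RBL1: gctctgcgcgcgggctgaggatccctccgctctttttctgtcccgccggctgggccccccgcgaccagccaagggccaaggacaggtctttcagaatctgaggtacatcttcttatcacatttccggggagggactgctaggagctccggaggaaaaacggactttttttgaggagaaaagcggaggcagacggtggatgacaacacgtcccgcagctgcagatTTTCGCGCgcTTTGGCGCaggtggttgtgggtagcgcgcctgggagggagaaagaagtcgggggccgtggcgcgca
E2F3: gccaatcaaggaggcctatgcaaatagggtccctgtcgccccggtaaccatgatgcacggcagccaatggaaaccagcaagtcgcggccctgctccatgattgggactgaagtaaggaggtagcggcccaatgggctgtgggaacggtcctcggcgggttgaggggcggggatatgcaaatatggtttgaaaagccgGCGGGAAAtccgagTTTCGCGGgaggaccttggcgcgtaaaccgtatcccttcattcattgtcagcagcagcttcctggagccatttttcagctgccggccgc
Both words of E2F6 were TTTCCCGG, 183 and 78 bases before its start site. Its RNA, too, was not called lower with ARM165 in either line (log2 change 0.036 in MOLM14 and 0.47 in OCI-AML2). No word lay in the windows of E2F4, E2F7 or RB1 or in the second window of E2F3, and the RB1 window belongs to a start site 172724 bases inside the gene as GENCODE release 29 places it. A match is a run of letters and was not tied here to binding.

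Depth was an estimated 35.4 to 59.0 M reads per library, with 18889 to 19699 symbols above 0. In MOLM14 it was 35.4 to 50.2 M with ARM165, 36.1 to 38.7 M with AZ2 and 44.8 to 59.0 M with DMSO, so AZ2 and DMSO libraries did not overlap in depth there. The first principal component separated the ARM165 libraries from the others and held 59.5% of the variance in MOLM14 and 54.4% in OCI-AML2. The second OCI-AML2 DMSO library stood apart on the second component (-71.7, against -5.57 to 21.8 for the other 11), so OCI-AML2 results are also given without it. In MOLM14 the third AZ2 library lay farthest out on that component (50.4, against -34.9 to 12.8 for the other 11). All 8 myeloid marker genes were measured in both lines. Their summed values ran from 38246 to 44860 in ARM165 libraries and from 57882 to 61075 in DMSO libraries of MOLM14. In OCI-AML2 they ran from 52513 to 54180 in ARM165 libraries and from 91287 to 98338 in DMSO libraries. Of the 8 markers 3 were called higher and 4 lower with ARM165 in MOLM14 (median log2 change -0.015), and 1 higher and 4 lower in OCI-AML2 (median -0.57). Among all genes tested, 35.5% were called higher and 34% lower in MOLM14, and 34.2% higher and 31.6% lower in OCI-AML2. LYZ, lysozyme, named after its values were seen, averaged 2677 with ARM165 and 20319 with DMSO in MOLM14, and 19744 with ARM165 and 47537 with DMSO in OCI-AML2. Defining T cell, B cell, red cell and epithelial markers were at or near 0 (CD3E at most 4.23, MS4A1 at most 3.61, HBB at most 21.8, EPCAM at most 11.9). Of the 5 epithelial and fibroblast markers, 3 were kept in MOLM14, and their sum was 3610 to 3901 in ARM165 libraries and 2063 to 2375 in DMSO libraries. In OCI-AML2 1 of the 5 was kept, and their sum was 22.8 to 40.7 in ARM165 libraries and 9.42 to 32.3 in DMSO libraries. Of 5 T and NK cell markers, NKG7 and GNLY were kept, with the list's sum at 408 to 489 in ARM165 and 567 to 622 in DMSO libraries of MOLM14, and at 505 to 677 in ARM165 and 784 to 930 in DMSO libraries of OCI-AML2. Of 4 B cell markers, 3 were kept in MOLM14 (sum 312 to 393 with ARM165 and 551 to 668 with DMSO) and 2 in OCI-AML2 (sum 17.5 to 40.7 with ARM165 and 48.1 to 70.4 with DMSO). None of the 4 red cell markers was kept in either line. The share of reads from mitochondrial genes was 4.49% to 5.08% with ARM165, 5.39% to 6.32% with AZ2 and 5.07% to 5.45% with DMSO in MOLM14, and 5.02% to 5.91% with ARM165, 7.75% to 8.63% with AZ2 and 7.20% to 8.11% with DMSO in OCI-AML2. The epithelial and fibroblast sums of OCI-AML2 overlapped between ARM165 and DMSO libraries, and the mitochondrial shares of MOLM14 overlapped narrowly. The other sums given, and the mitochondrial shares of OCI-AML2, differed between ARM165 and DMSO libraries without overlap, as many results below do. The part of these markers and shares in those results was not tested.

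ARM165 shifted most of the family in both lines, and in opposite directions for different members. E2F1, E2F2, E2F8 and RBL1 fell strongly, E2F4 fell less, RB1, E2F5 and E2F7 rose, E2F6 was called higher in OCI-AML2, and E2F3 passed the test in neither line. In MOLM14, 8 of the 10 genes were called, 3 higher and 5 lower, where 69.5% of all 15288 genes tested were called. In OCI-AML2, 9 of the 10 were called, 4 higher and 5 lower, where 65.8% of 15377 genes were called. Calls were made in limma below an adjusted p of 0.05, so a call by itself is near the background in these comparisons, and the sizes below carry the description. The share of all genes whose groups do not overlap was not computed, so lack of overlap below only describes the libraries of a gene. The median size of a log2 change over all genes tested was 0.63 in MOLM14 and 0.66 in OCI-AML2, with signed medians of 0.031 and 0.034. In MOLM14 the changes of E2F3, E2F4, E2F5, E2F6 and E2F7 were smaller than this median size. In OCI-AML2 those of E2F3, E2F4, E2F5, E2F6 and RB1 were smaller than it. Values are normalized estimated reads per gene, and in these bulk samples fewer cells of a cycle phase and less RNA per cell cannot be told apart.

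**Figure D1:**
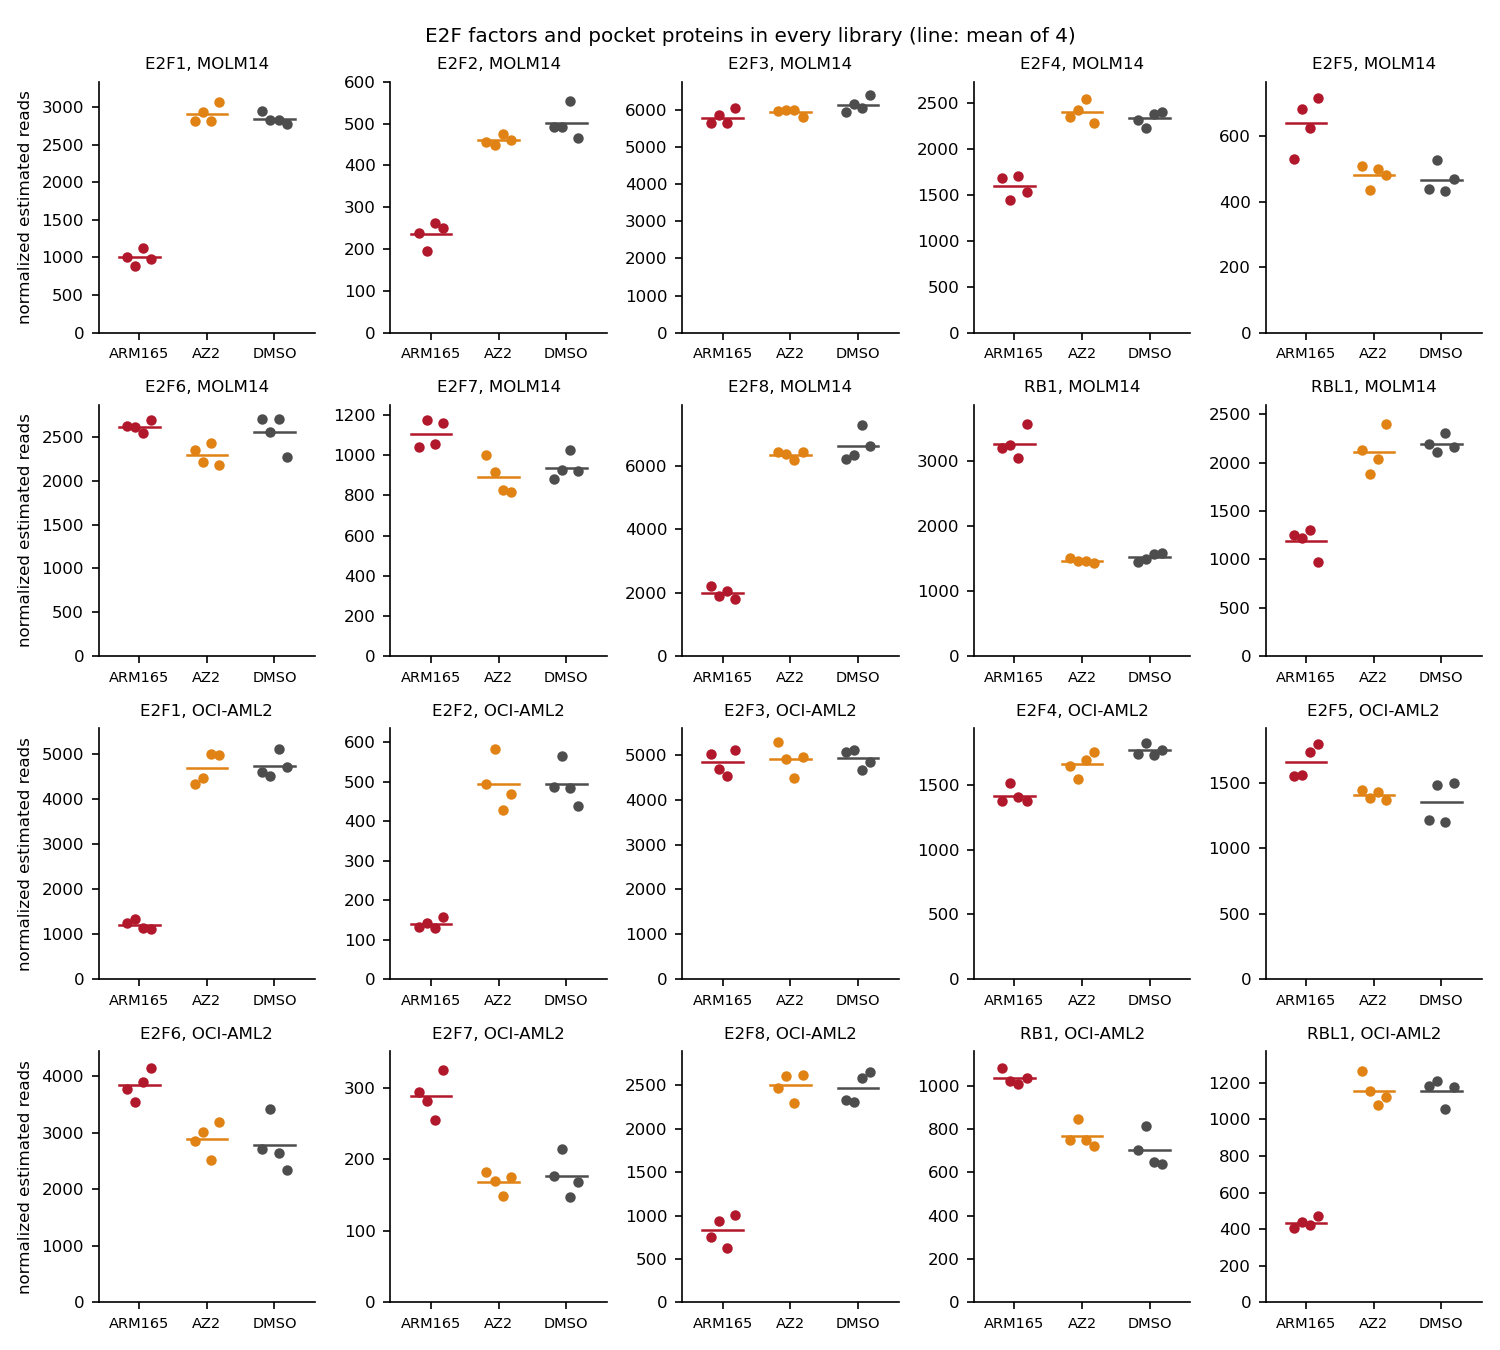
Normalized estimated reads of each member (y axis, linear, from 0) in the 4 ARM165, 4 AZ2 and 4 DMSO libraries of MOLM14 (upper 2 rows) and OCI-AML2 (lower 2 rows). Points are libraries and lines are group means. The ARM165 points of E2F1, E2F2, E2F8 and RBL1 lie below all AZ2 and DMSO points and those of RB1 lie above them in both lines, while the E2F3 points of the 3 groups lie at like heights.

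E2F1, the activator that also promotes cell death when in excess, had 1009.5, 888, 1126 and 985 reads in the 4 ARM165 libraries of MOLM14, 2807, 2938, 2807 and 3069.8 in the AZ2 libraries and 2941, 2822, 2827 and 2776 in the DMSO libraries. In OCI-AML2 the reads were 1253, 1325, 1135 and 1113 with ARM165, 4324, 4471, 4996 and 4977 with AZ2 and 4591, 4509, 5105 and 4695 with DMSO. Every ARM165 library was thus below every DMSO library in each line, without overlap. The log2 change with ARM165 was -1.51 ± 0.063 (SE) in MOLM14, a 2.84-fold lower value (limma adjusted p = 1.19e-11), and -1.97 ± 0.071 in OCI-AML2, a 3.92-fold lower value (limma adjusted p = 2.29e-12). Of all genes tested, 4.98% had a lower change than E2F1 in MOLM14.

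E2F2, an activator closely related to E2F1, also fell in both lines. Its values were 239, 195, 262 and 249.9 with ARM165, 457, 448, 474 and 460.4 with AZ2 and 491, 491, 554 and 465 with DMSO in MOLM14. In OCI-AML2 they were 132, 142, 129.7 and 158 with ARM165, 493, 583, 429 and 468 with AZ2 and 487, 565, 485 and 438 with DMSO. ARM165 and DMSO libraries did not overlap in either line. The log2 changes were -1.08 ± 0.099 in MOLM14 (limma adjusted p = 9.38e-08) and -1.80 ± 0.12 in OCI-AML2 (limma adjusted p = 2.24e-09). E2F3, the third activator, did not pass the test, and its first promoter window holds E2F words too. Its values were 5629, 5849, 5642 and 6036 with ARM165, 5971, 5999, 5995 and 5803 with AZ2 and 5928, 6144, 6039.5 and 6398 with DMSO in MOLM14, where the groups overlapped. In OCI-AML2 they were 5020.3, 4694, 4523 and 5101 with ARM165, 5294, 4918, 4484 and 4958 with AZ2 and 5069.5, 5118, 4674 and 4844 with DMSO, also overlapping. The 95% interval of its log2 change was -0.17 to 0.0013 in MOLM14 (limma adjusted p = 0.0739) and -0.16 to 0.10 in OCI-AML2 (limma adjusted p = 0.703). Without the fourth MOLM14 ARM165 library E2F3 was called, at -0.10 (limma adjusted p = 0.0244). Its intervals leave out changes of the size that E2F1 and E2F2 had in the same line.

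E2F4, the main repressor E2F of resting cells, fell and E2F5, its closest relative, rose. E2F4 had 1679.6, 1446, 1703 and 1527 reads with ARM165, 2339.9, 2417, 2546 and 2284 with AZ2 and 2316, 2230.4, 2376 and 2399 with DMSO in MOLM14. In OCI-AML2 its values were 1374, 1515, 1406 and 1378 with ARM165, 1651, 1547, 1697 and 1754 with AZ2 and 1739, 1826, 1733 and 1774 with DMSO. The ARM165 libraries lay below the DMSO libraries in each line, with log2 changes of -0.55 ± 0.059 in MOLM14 (limma adjusted p = 5.00e-07) and -0.32 ± 0.059 in OCI-AML2 (limma adjusted p = 0.00018). E2F5 had 531, 684, 626 and 716 reads with ARM165, 508, 436, 499 and 483 with AZ2 and 439, 526, 433 and 469.9 with DMSO in MOLM14. In OCI-AML2 its values were 1552, 1559, 1734 and 1797 with ARM165, 1448, 1384, 1431 and 1371 with AZ2 and 1218, 1482, 1203 and 1496 with DMSO. The groups did not overlap, although the lowest MOLM14 ARM165 library was only just above the highest DMSO library. Its log2 changes were 0.45 ± 0.10 in MOLM14 (limma adjusted p = 0.000975) and 0.30 ± 0.082 in OCI-AML2 (limma adjusted p = 0.00423), which are below the median size of all genes tested.

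E2F6, the repressor that works with polycomb proteins, rose in OCI-AML2. There it had 3762, 3547, 3885 and 4136 reads with ARM165, 2854, 3005, 2513 and 3187 with AZ2 and 2710.1, 3423, 2646 and 2347 with DMSO, a log2 change of 0.47 ± 0.10 against DMSO (limma adjusted p = 0.000626). The highest of those DMSO values came from the library that stood apart. In MOLM14 its values were 2625, 2614, 2549 and 2702 with ARM165, 2353, 2213, 2429 and 2185 with AZ2 and 2703, 2559.98, 2709 and 2279 with DMSO, and the ARM165 and DMSO groups overlapped (interval -0.088 to 0.16, limma adjusted p = 0.595). The processed pseudogene E2F6P4, whose reads the counting could share with E2F6, was at 141.8 to 248 in OCI-AML2 and at no more than 2.12 in MOLM14. With its reads added, the OCI-AML2 change was 0.45 (limma adjusted p = 0.000644), an alternative chosen after seeing the data. Pseudogenes of other E2F genes reached at most 20.8.

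The atypical pair moved in opposite directions. E2F8 showed the largest fall of the 10 genes in MOLM14. It had 2191, 1895, 2033 and 1785 reads with ARM165, 6428, 6364, 6168 and 6418 with AZ2 and 6198, 6333, 7270.4 and 6629.8 with DMSO in that line. In OCI-AML2 its values were 757, 940.2, 632 and 1006 with ARM165, 2470.2, 2611, 2299 and 2626 with AZ2 and 2327, 2307, 2586 and 2655 with DMSO. No ARM165 library overlapped a DMSO library, and the log2 changes were -1.74 ± 0.063 in MOLM14 (limma adjusted p = 2.35e-12) and -1.59 ± 0.12 in OCI-AML2 (limma adjusted p = 7.77e-09). E2F7 had 1040.01, 1175, 1054 and 1162 reads with ARM165, 1001, 917, 825 and 819.5 with AZ2 and 882, 925, 1028 and 919 with DMSO in MOLM14. In OCI-AML2 its values were 295, 281, 255 and 326 with ARM165, 182, 169, 149 and 176 with AZ2 and 177, 215, 147 and 168 with DMSO. E2F7 thus rose without overlap in each line, narrowly in MOLM14 (0.24 ± 0.077, limma adjusted p = 0.0125) and by more in OCI-AML2 (0.71 ± 0.14, limma adjusted p = 0.000269).

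Of the pocket proteins, RB1 rose and RBL1 fell. RB1, the retinoblastoma tumour suppressor, had 3204, 3259.9, 3052 and 3583 reads with ARM165, 1503, 1464, 1459 and 1433 with AZ2 and 1453, 1492, 1573 and 1580.3 with DMSO in MOLM14. In OCI-AML2 its values were 1082, 1022, 1010.4 and 1036 with ARM165, 749, 848, 752 and 721 with AZ2 and 703, 816, 648 and 640.4 with DMSO. All 4 ARM165 libraries were above all DMSO libraries in each line, by 2.14-fold in MOLM14 (1.10 ± 0.054 on the log2 scale, limma adjusted p = 6.33e-11) and 1.48-fold in OCI-AML2 (0.57 ± 0.085, limma adjusted p = 2.26e-05). RBL1, the p107 protein that pairs with E2F4 and is itself an E2F target, had 1249, 1219, 1299.7 and 969 reads with ARM165, 2129.6, 1879.8, 2037 and 2403 with AZ2 and 2197, 2110.1, 2311 and 2161 with DMSO in MOLM14. In OCI-AML2 its values were 407, 439, 424 and 475 with ARM165, 1264, 1152, 1080.3 and 1122 with AZ2 and 1181, 1207, 1054 and 1178 with DMSO. RBL1 fell without overlap, with log2 changes of -0.90 ± 0.089 in MOLM14 (limma adjusted p = 2.22e-07) and -1.40 ± 0.077 in OCI-AML2 (limma adjusted p = 2.53e-10). The third pocket protein gene, RBL2, which is no member and was named after its values were seen, averaged 1208 ± 43.5 with ARM165 and 2241 ± 83.7 with DMSO in MOLM14 (SD, n = 4 each). In OCI-AML2 it averaged 849 ± 23.0 with ARM165 and 1185 ± 62.9 with DMSO. Its log2 changes were -0.89 ± 0.054 in MOLM14 (limma adjusted p = 7.34e-10) and -0.48 ± 0.073 in OCI-AML2 (limma adjusted p = 2.96e-05), so RB1 alone of the 3 pocket protein genes was higher with ARM165.

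Without the OCI-AML2 DMSO library that stood apart, the same 9 genes were called in that line. Their log2 changes were then -1.99 for E2F1, -1.74 for E2F2, -0.30 for E2F4, 0.35 for E2F5 and 0.58 for E2F6. The changes were 0.81 for E2F7, -1.62 for E2F8, 0.64 for RB1 and -1.38 for RBL1, and E2F3, at -0.0093, was again not called.

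**Figure D2:**
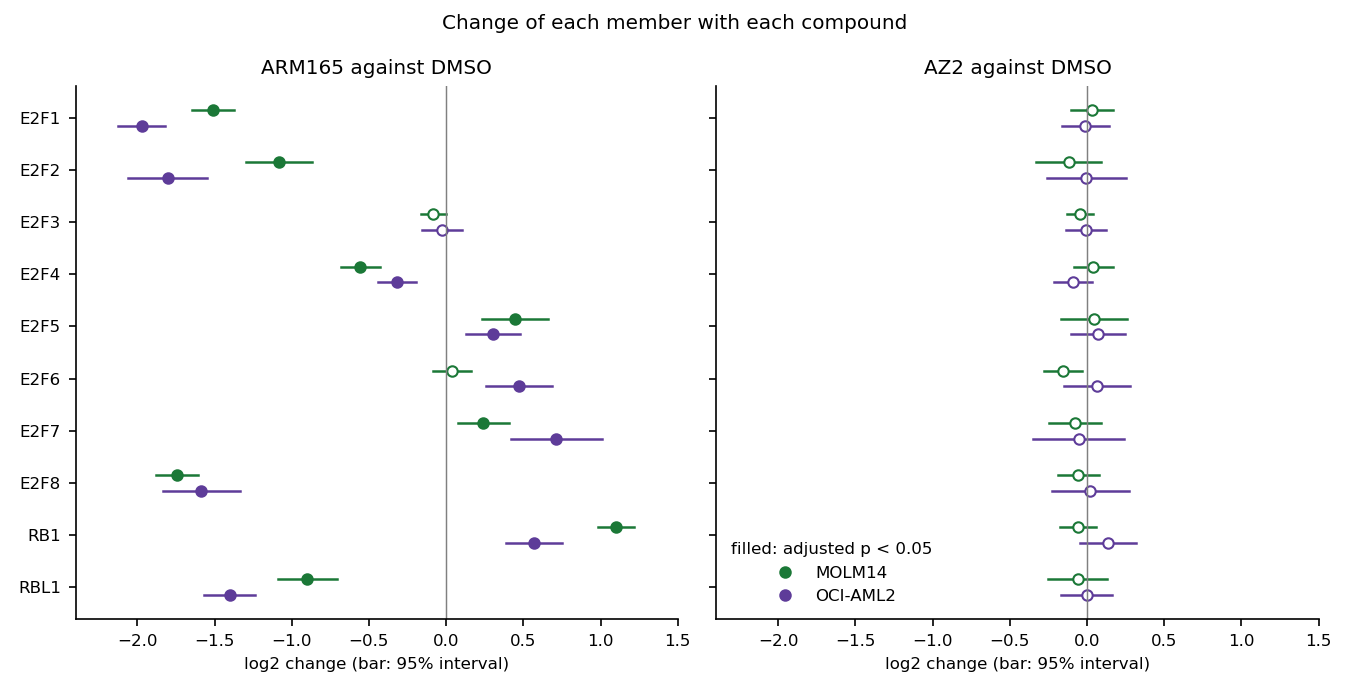
Log2 change of each member with ARM165 (left) and AZ2 (right) against DMSO, for MOLM14 (green) and OCI-AML2 (purple), with bars for unadjusted 95% intervals and filled points for adjusted p under 0.05. With ARM165 the points run from -1.97 to 1.10, and with AZ2 they lie between -0.16 and 0.13, all open.

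AZ2 moved none of the 10 genes past the test. In both lines 0 of 10 were called, where limma called 0% of all genes tested in MOLM14 (899 genes at an unadjusted p under 0.05) and 0.111%, or 17 genes, in OCI-AML2 (733 genes at an unadjusted p under 0.05). The log2 changes of the 10 genes ran from -0.16 for E2F6 to 0.046 for E2F5 in MOLM14, and from -0.090 for E2F4 to 0.13 for RB1 in OCI-AML2. For E2F1 the unadjusted 95% interval was -0.10 to 0.17 in MOLM14 and -0.16 to 0.14 in OCI-AML2. For RB1 it was -0.17 to 0.058 in MOLM14 and -0.049 to 0.31 in OCI-AML2, and for E2F8 it was -0.19 to 0.077 in MOLM14 and -0.23 to 0.27 in OCI-AML2. Changes of the size seen with ARM165 for these 3 genes lie outside those intervals. E2F6 in MOLM14 was the only gene of the 10 whose unadjusted interval left out 0 (-0.28 to -0.033, limma adjusted p = 0.719), with overlapping libraries. Without the third MOLM14 AZ2 library 0 of the 10 were called in MOLM14 too, where 3 genes in all were then called. Without the OCI-AML2 DMSO library that stood apart, 0 of 10 were called in that line as well, RB1 then being at 0.21.

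ARM165 and AZ2 were compared directly at the same time, 24 h, though their doses are not stated and may differ. They formed 1 pair in each line, with p-values adjusted over all genes. In each line 9 of the 10 genes were called, 4 higher and 5 lower with ARM165, where 70.1% of all genes were called in MOLM14 (36.1% higher and 34% lower) and 65.8% in OCI-AML2 (34.5% higher and 31.4% lower). The same 5 genes were lower in both lines: E2F1 (-1.54 ± 0.063 in MOLM14, -1.96 ± 0.071 in OCI-AML2), E2F2 (-0.96 ± 0.099, -1.80 ± 0.12), E2F4 (-0.59 ± 0.059, -0.23 ± 0.059), E2F8 (-1.69 ± 0.063, -1.61 ± 0.12) and RBL1 (-0.84 ± 0.089, -1.40 ± 0.077). RB1 was higher by 1.16 ± 0.054 in MOLM14 and 0.44 ± 0.085 in OCI-AML2. E2F7 was higher by 0.32 ± 0.077 in MOLM14 and 0.77 ± 0.14 in OCI-AML2. E2F6 was higher by 0.19 ± 0.058 in MOLM14 (limma adjusted p = 0.00795) and 0.41 ± 0.10 in OCI-AML2. E2F5 was higher by 0.40 ± 0.10 in MOLM14 and 0.23 ± 0.082 in OCI-AML2 (limma adjusted p = 0.0205). That E2F5 call in OCI-AML2 was lost without the third ARM165 library (limma adjusted p = 0.0566) or the fourth (limma adjusted p = 0.065). E2F3 was not called, with intervals of -0.12 to 0.045 in MOLM14 and -0.15 to 0.11 in OCI-AML2. Without the third MOLM14 AZ2 library 9 of the 10 were called in MOLM14, again 4 higher and 5 lower. These comparisons share their ARM165 libraries with those against DMSO.

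The response to ARM165 differed in size between the lines for most of the genes. The interaction term, OCI-AML2 change minus MOLM14 change, was called for 7 of the 10, where 42.4% of 14287 genes kept in both lines were called, 24.3% with a positive and 18.1% with a negative term. E2F1 (-0.46 ± 0.096, limma adjusted p = 0.000389), E2F2 (-0.72 ± 0.15, limma adjusted p = 0.000472) and RBL1 (-0.50 ± 0.12, limma adjusted p = 0.0013) fell further in OCI-AML2. E2F4 fell less there (0.24 ± 0.079, limma adjusted p = 0.0181). RB1 rose less in OCI-AML2 (-0.53 ± 0.097, limma adjusted p = 9.71e-05), whereas E2F7 rose more (0.47 ± 0.15, limma adjusted p = 0.0122). E2F6, called in OCI-AML2 only, also differed in the interaction test (0.44 ± 0.12, limma adjusted p = 0.00544). E2F3, E2F5 and E2F8 did not pass it, with intervals of -0.088 to 0.20 for E2F3, -0.41 to 0.13 for E2F5 and -0.13 to 0.45 for E2F8. With quantile normalization the E2F4 term was 0.17 (limma adjusted p = 0.0831) and the E2F7 term 0.31 (limma adjusted p = 0.0929), so those calls were lost. Without the OCI-AML2 DMSO library that stood apart all 7 were called, E2F6 then at 0.54.

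For AZ2 the interaction term was called for 0 of the 10 genes, where limma called 0.028% of all genes (4 genes, and 746 genes at an unadjusted p under 0.05). Without the third MOLM14 AZ2 library 0 of the 10 and 0 genes in all were called. Its values for the 10 genes ran from -0.13 for E2F4 to 0.22 for E2F6.

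**Figure D3:**
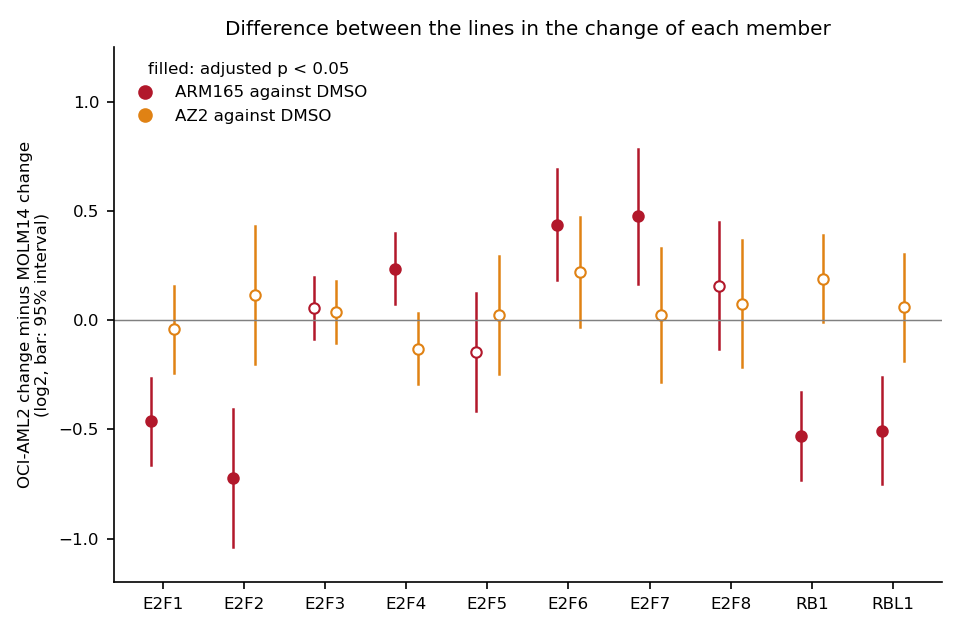
Difference between the lines in the log2 change of each member (OCI-AML2 change minus MOLM14 change) for ARM165 (red) and AZ2 (orange), with unadjusted 95% intervals and filled points for adjusted p under 0.05. The 7 filled points are all ARM165 terms, from -0.72 for E2F2 to 0.47 for E2F7, and all AZ2 points are open.

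The partners of the family were read from a list of 10 DP, MuvB and related genes, MuvB being the core of the DREAM repressor that RBL1 or RBL2 and E2F4 complete. In MOLM14 5 were lower with ARM165, 2 higher and 3 not called, and in OCI-AML2 7 were lower, 2 higher and 1 not called. Of all genes 34% were called lower and 35.5% higher in MOLM14, and 31.6% lower and 34.2% higher in OCI-AML2. The median log2 change of the list was -0.46 in MOLM14 and -0.59 in OCI-AML2. TFDP1, a DP partner with which E2F1 to E2F6 bind DNA, averaged 3826 ± 333 with ARM165 and 11666 ± 299 with DMSO in MOLM14 (SD, n = 4 each). In OCI-AML2 it averaged 3144 ± 187 with ARM165 and 8253 ± 399 with DMSO. TFDP2, the other DP gene of the list, was named after its values were seen. It averaged 288 ± 13.5 with ARM165 and 233 ± 40.9 with DMSO in MOLM14, and 678 ± 60.6 with ARM165 and 439 ± 75.9 with DMSO in OCI-AML2. MYBL2, the B-MYB factor that joins MuvB in S phase and is an E2F target, averaged 7450.00 ± 687 with ARM165 and 19316 ± 299 with DMSO in MOLM14, and 4496 ± 129 with ARM165 and 15664 ± 944 with DMSO in OCI-AML2. FOXM1, which joins MuvB for mitotic genes, changed by -1.05 ± 0.062 in MOLM14 and -1.45 ± 0.055 in OCI-AML2. LIN37, the MuvB subunit tied to repression, was higher by 0.53 ± 0.11 in MOLM14 and 1.23 ± 0.11 in OCI-AML2 (chosen after its values were seen).

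Most kinases and cyclins that act on the pocket proteins fell with ARM165, and more of their inhibitors rose than fell. Of 11 pocket protein kinases, cyclins and their regulators, 9 were lower and 2 higher with ARM165 in MOLM14, and of 10 tested in OCI-AML2, 8 were lower, 1 higher and 1 not called. Higher in both lines was CDK6, which averaged 2200 ± 54.8 with ARM165 and 1930 ± 51.1 with DMSO in MOLM14 (SD, n = 4 each). In OCI-AML2 it averaged 1080 ± 67.9 with ARM165 and 829 ± 44.8 with DMSO. CCND2, higher in MOLM14, did not pass the filter on low values in OCI-AML2. Both were named after their values were seen. The list medians were -1.33 in MOLM14 and -1.51 in OCI-AML2. For this list and the 2 that follow, 35.5% of all genes were called higher and 34% lower in MOLM14. In OCI-AML2 34.2% were called higher and 31.6% lower. SKP2, the F-box protein that targets the inhibitor p27, averaged 1332 ± 109 with ARM165 and 4746 ± 131 with DMSO in MOLM14, and 529 ± 85.6 with ARM165 and 2009.9 ± 43.9 with DMSO in OCI-AML2. CCNA2, the S phase cyclin A2, changed by -1.38 ± 0.054 and -1.37 ± 0.072 in those lines. CCND3, cyclin D3, changed by -0.40 ± 0.053 and -1.32 ± 0.051, and CDC25A, the phosphatase that activates CDK2, by -1.43 ± 0.090 and -1.70 ± 0.069. Of the CDK inhibitors tested, 4 of 5 rose and 1 fell in MOLM14, and 3 of 6 rose and 1 fell in OCI-AML2. Of the 4 inhibitors tested in both lines, 3 rose and 1 fell in MOLM14, and 1 rose and 1 fell in OCI-AML2. The other inhibitors that rose in OCI-AML2 were CDKN2A and CDKN2B, which were not tested in MOLM14. CDKN1A, which encodes p21, averaged 45344 ± 2398 with ARM165 and 6985 ± 272 with DMSO in MOLM14, and 17106 ± 259 with ARM165 and 373 ± 22.6 with DMSO in OCI-AML2. CDKN2C, the p18 inhibitor of CDK4 and CDK6 and itself an E2F target, was the inhibitor that fell, with log2 changes of -0.73 in MOLM14 and -1.41 in OCI-AML2. Among 5 genes for E2F turnover 4 were lower and 1 not called in MOLM14, and 4 were lower and 1 higher in OCI-AML2. The exception in both lines was FZR1, an activator of the anaphase-promoting complex named after its values were seen (-0.099 ± 0.066 in MOLM14, 0.66 ± 0.12 in OCI-AML2). Lower in both was FBXO5, the inhibitor of that complex (-1.44 ± 0.046 in MOLM14, -1.47 ± 0.067 in OCI-AML2).

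**Figure D4:**
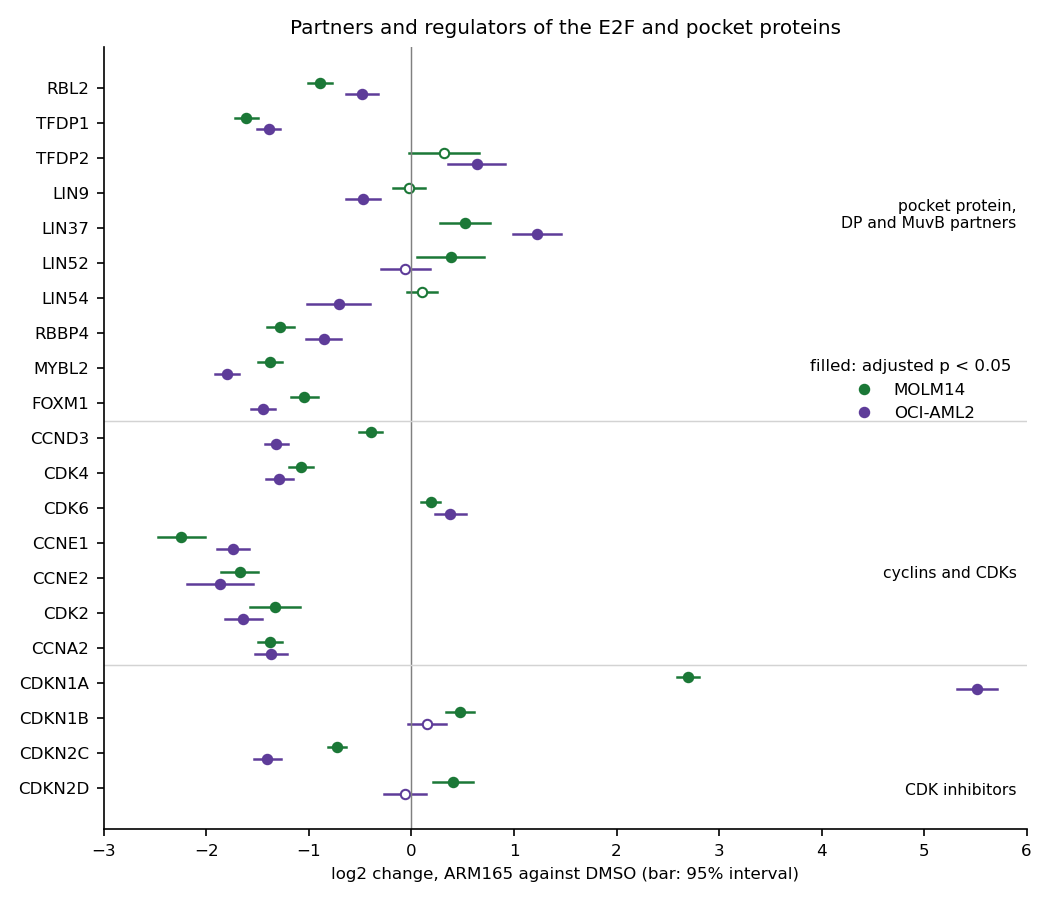
Log2 change with ARM165 against DMSO (x axis) for partners, cyclins and kinases, and CDK inhibitors in MOLM14 (green) and OCI-AML2 (purple), with unadjusted 95% intervals and filled points for adjusted p under 0.05. Of the genes drawn, all tested in both lines, CDKN1A lies farthest right, at 2.70 in MOLM14 and 5.52 in OCI-AML2 (CDKN1C, tested in MOLM14 only, is not drawn and changed by 2.84 there), while TFDP1, RBL2, MYBL2 and FOXM1 lie left of 0 in both lines.

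Genes that E2F factors are known to switch on at the start of S phase fell almost as a group. Of 43 G1/S target genes, 41 were lower with ARM165, 1 higher and 1 not called in MOLM14, with a median log2 change of -1.38. In OCI-AML2 42 were lower and 1 higher, with a median of -1.74. Of all genes tested, 34% were called lower in MOLM14 and 31.6% in OCI-AML2. The higher gene was RRM2B, the ribonucleotide reductase subunit better known as a p53 target (2.04 ± 0.080 in MOLM14, 0.68 ± 0.11 in OCI-AML2), and the gene not called in MOLM14 was BRCA2, both named after their values were seen. UHRF1, which maintains DNA methylation at replication, averaged 5373 ± 437 with ARM165 and 23469.7 ± 467 with DMSO in MOLM14, and 3909 ± 181 with ARM165 and 20152 ± 509.9 with DMSO in OCI-AML2. MCM3, a subunit of the replicative helicase, changed by -1.50 ± 0.052 in MOLM14 and -1.85 ± 0.044 in OCI-AML2. All 22 late cell cycle genes of the list for G2 and mitosis were lower in each line, with medians of -1.29 and -1.39. Among them TPX2, a spindle assembly factor, changed by -1.31 ± 0.043 and -1.42 ± 0.051, KIF11, a mitotic kinesin, by -1.33 ± 0.044 and -1.51 ± 0.072, and AURKB, a mitotic kinase, by -1.57 ± 0.055 and -1.92 ± 0.070. CCNE1, CCNE2 and CDC25A stand in both the G1/S and the kinase list, CCNA2 in the kinase and the late list, SKP2 in the kinase and the turnover list, CDC20 in the turnover and the late list, TFDP1 in the MuvB partner and the PRC1.6 list, and CDKN2A in the inhibitor and the death list.

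Targets and partners tied to single E2F members moved in mixed directions. Of all genes tested, 35.5% were called higher and 34% lower in MOLM14, and 34.2% higher and 31.6% lower in OCI-AML2. Calls in both directions were thus common among all genes. Of 8 genes for death and arrest that E2F1 can activate, 7 were tested in each line, and 4 were higher and 3 lower in MOLM14, and 5 higher and 2 lower in OCI-AML2. The 6 of them tested in both lines gave 4 higher and 2 lower in each line. BBC3, the death protein PUMA, which p53 also induces, was higher by 2.82 ± 0.075 in MOLM14 and 3.18 ± 0.12 in OCI-AML2. TP73, the p53 relative known as a direct E2F1 target, averaged 244 ± 30.4 with ARM165 and 1033 ± 64.2 with DMSO in MOLM14 and did not pass the filter on low values in OCI-AML2 (named after its values were seen). Of 13 genes of the E2F6 polycomb complex PRC1.6, 3 were higher, 6 lower and 4 not called in MOLM14, and 5 higher, 6 lower and 2 not called in OCI-AML2. RNF2, its ubiquitin ligase, was higher by 0.57 ± 0.047 and 1.96 ± 0.077, and WDR5 changed by -1.18 ± 0.054 and -1.22 ± 0.057. Of 9 germline genes that E2F6 represses in mouse, 4 passed the filter in each line. STAG3, a germline cohesin subunit, was higher in MOLM14 (0.51 ± 0.18, limma adjusted p = 0.0227), while SMC1B (-1.79 ± 0.75, limma adjusted p = 0.0465) and TUBA3D (-2.14 ± 0.90, limma adjusted p = 0.0475) were lower in OCI-AML2, close to the threshold. Against AZ2, 0 of the 4 were called in OCI-AML2. The standard errors of SMC1B and TUBA3D were well above the median of 0.12 over all genes tested in that line. Counts of this germline list were not checked under other scalings or without the library that stood apart. Without the OCI-AML2 DMSO library that stood apart, the OCI-AML2 counts of the G1/S list (42 lower, 1 higher), the late list (22 lower), the death list and the PRC1.6 list were as given.

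**Figure D5:**
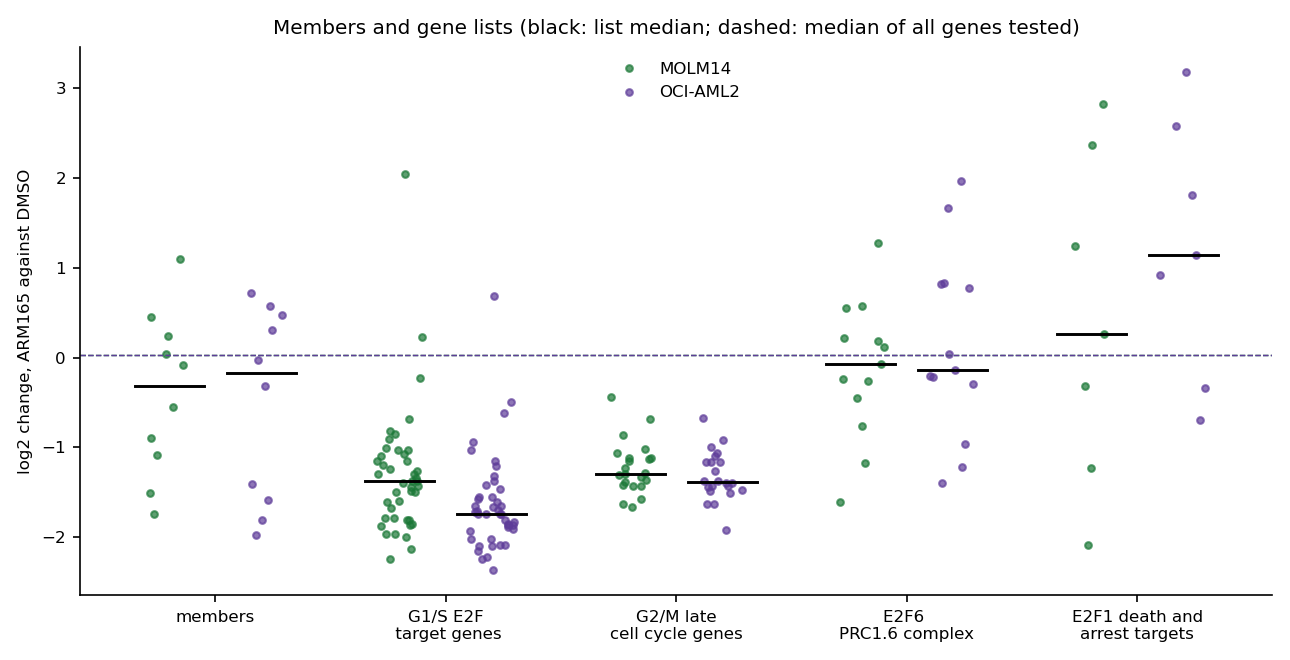
Log2 change with ARM165 against DMSO (y axis) for the 10 members and 4 gene lists, in MOLM14 (green) and OCI-AML2 (purple). Points are genes, black bars list medians, and dashed lines the medians of all genes tested (0.031 and 0.034). The G1/S list lies around its medians of -1.38 and -1.74 with RRM2B above 0, whereas the 10 members spread on both sides of 0.

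For each member, the gene with the most similar pattern over the 12 libraries of each line was sought among 14287 genes, as the highest mean of the 2 Pearson correlations of log2 values. These correlations describe how genes track the treatments, since all 12 libraries of a line share the split between ARM165 and the rest. E2F1 ran closest to MYBL2 (mean r = 0.997), and E2F8 to SKP2 (0.991). E2F2 ran closest to PAICS, a purine synthesis enzyme (0.992), RBL1 to FAM111A (0.983), E2F4 to SYNGR2 (0.981) and RB1 to DNMBP (0.975). E2F7 ran closest to EXOC5, an exocyst subunit (0.940), and E2F5 to ADPRM (0.897). The weakest best matches were those of E2F6 with TFCP2 (0.847) and of E2F3 with PDS5A, a cohesin regulator (0.837).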

How the data were processed

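Per the labels' protocols, stranded poly(A) libraries were made with a TruSeq kit. Per the submitters' processing notes, the authors quantified transcripts with kallisto (version not stated). The build, annotation and scaling method are not given in the sources used here. The signal values deposited for each symbol are estimated counts after scaling by the authors and hold fractions, so count tests were not run. Depth was estimated from the value of 1 read. Members and lists were chosen with earlier results of these data known. Named genes are all members, up to 2 called genes per list with the smallest adjusted p in either line, and the nearest pattern of each member; some genes this rule picks are not reported here. Values were taken as log2(value + 1), which understates changes of low genes. Genes reaching 10 in 4 or more libraries of a line entered limma 3.58.1 (R 4.3.3), with 1 mean per group, a variance trend and Benjamini-Hochberg adjustment over all genes. Intervals are 95% and unadjusted. The fit was tested on simulated data. The labels do not say what a replicate number shares, so no block was used. With group means removed, same-number libraries of different treatments correlated at r from -0.037 to 0.056. Libraries with unlike numbers correlated at -0.063 to 0.046. No column was left out. Figures used matplotlib 3.10.9. Alternatives are in the closing section.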

Additional observations from a re-analysis of the deposited data

Results flagged for a closer look

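In 7 of the 10 genes the change with ARM165 differed between the lines by the interaction test (OCI-AML2 change minus MOLM14 change, limma), where 42.4% of 14287 genes were called. With quantile normalization 5 were called, those of E2F4 (adjusted p = 0.0831) and E2F7 (adjusted p = 0.0929) being lost. The terms were -0.46 for E2F1, -0.72 for E2F2, 0.24 for E2F4, 0.44 for E2F6, 0.47 for E2F7, -0.53 for RB1 and -0.50 for RBL1. Of these, E2F1, E2F2, E2F4, E2F7, RB1 and RBL1 moved in the same direction in both lines and differed in size.

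Among 60 groups of 4 libraries, 1 held a library far from its group: the lowest E2F3 value in MOLM14 with AZ2, 5803 with the other 3 libraries at 5971 to 5999, stood apart by a gap of 0.859 of the range, past the 95% critical value of Dixon's test for 4 values. Chance gives about 1 in 20 such groups.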

How the results depend on the processing

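With ARM165 against DMSO, 8 to 9 members were called in MOLM14 and 9 in OCI-AML2 under every alternative run. Against AZ2 9 were called in MOLM14 and 8 to 9 in OCI-AML2. AZ2 gave 0 throughout. The line difference for ARM165 gave 7, but 5 with quantile normalization. With the replicate block, though what a number shares is not stated, members called were 8, 9, 9 and 9 in the 4 ARM165 comparisons within a line and 7 between lines. Genes called with AZ2 in OCI-AML2 were then 10 instead of 17. Without each replicate in turn those genes numbered 9 to 17, and 0 to 3 in MOLM14. Across the other settings they numbered 7 to 20 in OCI-AML2. The line difference for AZ2 called 4 genes (0 to 7 leaving out a library, 1 to 6 otherwise). E2F3 in MOLM14 was called with ARM165 by median centring (-0.11, limma adjusted p = 0.00888) and by array quality weights (-0.097, limma adjusted p = 0.0287). E2F5 in OCI-AML2 against AZ2 lost its call with quantile normalization (limma adjusted p = 0.073) and median centring (limma adjusted p = 0.0623). The cause of these shifts was not tested.

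No called value changed sign. Among values not called, quantile normalization turned E2F3 against AZ2 in MOLM14 to 0.020, its line difference for ARM165 to -0.014, and the OCI-AML2 AZ2 changes of E2F1 to 0.021, E2F2 to 0.018, E2F3 to 0.018 and RBL1 to 0.014. Median centring turned them to 0.0019 for E2F1, 0.0085 for E2F2, 0.0080 for E2F3 and 0.012 for RBL1. Array quality weights gave 0.041 for E2F2 and 0.0069 for RBL1. Leaving out a library gave OCI-AML2 AZ2 ranges of -0.043 to 0.027 for E2F1, -0.088 to 0.062 for E2F2, -0.042 to 0.038 for E2F3, -0.013 to 0.17 for E2F6, -0.14 to 0.042 for E2F7, -0.012 to 0.060 for E2F8 and -0.045 to 0.030 for RBL1. The line difference for AZ2 ranged from -0.035 to 0.075 for E2F5 and -0.060 to 0.12 for E2F7. With ARM165, E2F6 in MOLM14 ranged from -0.019 to 0.064, and E2F3 in OCI-AML2 ranged from -0.054 to 0.0036 against DMSO and -0.066 to 0.014 against AZ2.

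The list counts of G1/S, late cell cycle, kinase, inhibitor, turnover and death genes were the same under both other scalings, and those of the MuvB partner and PRC1.6 lists moved by at most 1 gene, an alternative added after seeing the data. Standard errors of log2 changes, with medians of 0.099 in MOLM14 and 0.12 in OCI-AML2, limit what AZ2 changes could be seen. The farthest shift of the median of all genes was -0.0996, by quantile normalization for ARM165 against AZ2 in MOLM14.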
